A study of Mus musculus with 6 samples.

Results

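Receptors that bind dying cells, myelin debris and oxidised lipids, together with the secreted proteins that bridge such cargo to them, were followed in the sham-operated sciatic nerve of female and male mice. The set held 10 genes, listed by symbol for their role in uptake, out of the 54309 genes in the deposited tables. It comprised 6 receptors (Axl, Mertk, Tyro3, Cd36, Stab1 and Megf10) and 4 genes of bridging molecules and galectin-3 (Gas6, Pros1, Mfge8 and Lgals3). Left sciatic nerve tissue, which the sample labels call whole and the study's methods call a proximal segment, was taken from C57BL/6J mice of 6 to 8 weeks, 24 h after the nerve had been exposed at mid-thigh without being cut. Nerves of 2 mice were combined in each sample, giving 3 female pools (F1, F2 and F3) and 3 male pools (M1, M2 and M3). All mice had undergone the sham operation, so the levels below are those of a surgically handled nerve, and unoperated nerves were not analysed here.

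Phagocytes recognise a dying cell largely by phosphatidylserine, a lipid that healthy cells keep on the inner face of the plasma membrane. Some receptors bind this lipid directly, whereas the TAM receptor tyrosine kinases (Tyro3, Axl and Mertk) bind it through the vitamin K-dependent proteins Gas6 and protein S, and integrins bind it through the milk fat globule protein Mfge8. In peripheral nerve, resident macrophages and Schwann cells both take up myelin debris after injury.

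The libraries held 55949876 to 78473057 estimated read pairs. Defining markers of nerve cells were present in every pool, with 10 of 10 myelinating Schwann cell markers, 12 of 12 macrophage markers, 8 of 8 fibroblast markers and 9 of 9 endothelial markers passing the filter on low counts. Summed macrophage marker levels were 1490 to 1582 TPM (reads per transcript length, scaled to the same total in every pool) in female pools and 1640 to 1862 TPM in male pools, so all 3 male pools were higher in this sum. In the edgeR fit described below, 9 of the 12 markers were lower and 3 higher in female pools. Fast skeletal muscle markers summed to 3230 TPM in F2 but to 17.4 to 208 TPM in the other pools, and erythroid markers reached 30870 TPM in F3 against 5064 to 14190 TPM elsewhere. Neutrophil markers, of which 6 of 8 passed, summed to 3199 to 5592 TPM in female pools and 3475 to 4515 TPM in male pools. Adipocyte markers summed to 585 to 1058 TPM in female pools and 536 to 666 TPM in male pools, with F3 highest. In whole tissue, fewer cells of a type and less RNA per cell cannot be told apart.

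Both Axl and Mfge8 were expressed as a pair of coding transcripts that differ inside the coding region by 1 exon. These exons are shown because the gene levels below sum over both forms, whose estimated shares are described later. In Axl, exon 10 of 20 lay at chr7:25472524-25472550 (GRCm39, minus strand) and was 27 bases long, or 9 codons. In Mfge8, exon 4 of 10 lay at chr7:78793026-78793136 (GRCm39, minus strand) and was 111 bases long, or 37 codons, which encode a proline- and threonine-rich stretch. Neither exon shifts the reading frame. Capitals mark the exon, and the lower-case letters are the 15 bases of the neighbouring exons on each side in the spliced transcript.
Axl-201, with the exon: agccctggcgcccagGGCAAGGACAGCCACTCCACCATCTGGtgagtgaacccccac
Axl-202, without the exon: agccctggcgcccagtgagtgaacccccac
Mfge8-201, with the exon: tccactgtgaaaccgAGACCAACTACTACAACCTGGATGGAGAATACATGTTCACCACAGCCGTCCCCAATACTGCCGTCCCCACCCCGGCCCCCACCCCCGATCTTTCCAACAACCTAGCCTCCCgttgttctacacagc
Mfge8-202, without the exon: tccactgtgaaaccggttgttctacacagc

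All 10 genes passed the filter on low counts, which asked for a CPM (counts scaled to library size) of 0.5 or more in 3 pools or more and which 16310 genes passed in all. Their levels spanned a wide range. Lgals3 was the most abundant at 578 TPM averaged over the 6 pools, at percentile 98.6 of the genes tested, and Megf10 the least at 1.5 TPM, at percentile 13.6. The order by mean TPM was Lgals3, Gas6, Axl, Cd36, Pros1, Stab1, Mfge8, Mertk, Tyro3 and Megf10. Of the 9 neighbouring pairs in this order, only Axl with Cd36 and Pros1 with Stab1 had overlapping pool values, and these pairs stood in the stated order in 3 and 4 of 6 pools. The total reads behind a member ran from 2484 for Megf10 to 173804 for Gas6, so the smallest values carry the largest counting error.

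**Figure D1:**
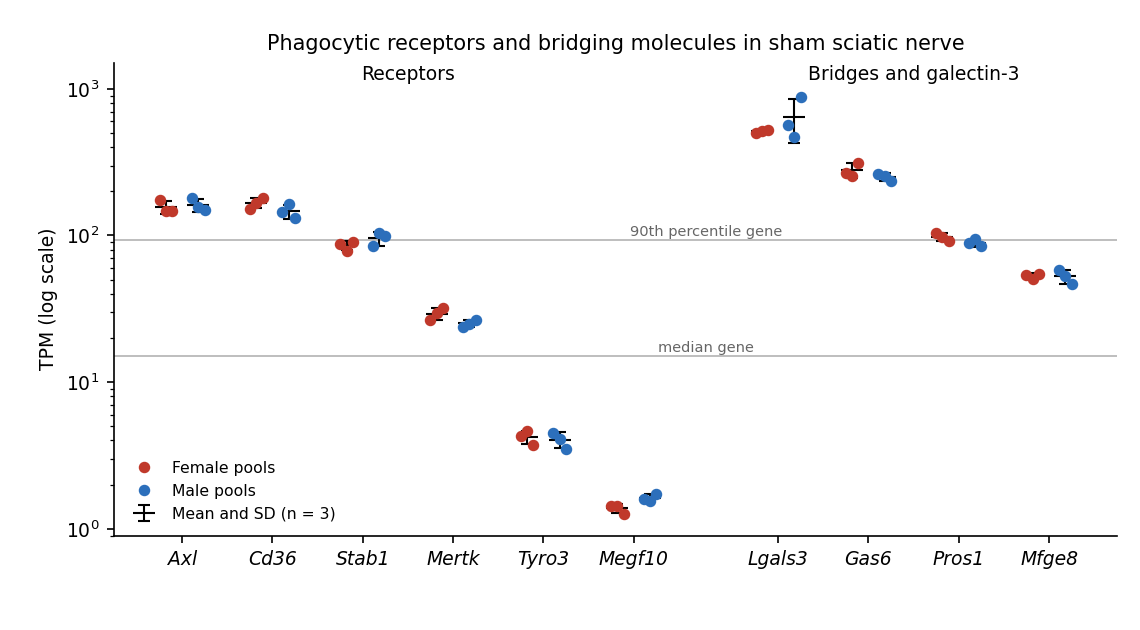
Level of each gene in every pool, in TPM on a log axis, with female pools (red) left of male pools (blue), and black marks for the mean and SD (n = 3); receptors stand left and bridging molecules with galectin-3 right. Grey lines mark the median and the 90th percentile of all genes tested, at 15.1 and 93.2 TPM. Lgals3 and Gas6 stood above every other member, and Tyro3 and Megf10 below the median gene, in all 6 pools.

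Among the TAM receptors, Axl was by far the most abundant. Axl (chr7:25456535-25488329), which binds Gas6 but not protein S, stood at 174, 148 and 146 TPM in female pools and at 180, 156 and 149 TPM in male pools. Pools of both sexes overlapped, with F1 and M1 the highest of their sex. The log2 fold change between female and male pools (log2FC, female over male) was 0.03 in edgeR's quasi-likelihood test (SE 0.11, 95% interval -0.23 to 0.29), with an adjusted p of 0.975.

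Mertk (chr2:128540729-128645080), the TAM receptor used by many tissue macrophages, stood at 26.4, 29.5 and 31.8 TPM in female pools and at 23.9, 25.1 and 26.6 TPM in male pools. The groups overlapped through a single female pool, F1, which lay below M3. Its log2FC was 0.19 (SE 0.09, 95% interval -0.03 to 0.41), with an adjusted p of 0.833 in edgeR. A small nucleolar RNA gene, Gm56345, lies on the same strand within Mertk and had 6.70 TPM on average over the pools.

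Tyro3 (chr2:119628214-119648738), the TAM receptor best known from neurons, stood at 4.31, 4.63 and 3.75 TPM in female pools and at 4.53, 4.11 and 3.53 TPM in male pools. The values interleaved between the sexes. With a log2FC of 0.12 (SE 0.08, 95% interval -0.08 to 0.31), Tyro3 had an adjusted p of 0.867 in edgeR.

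The TAM receptors kept the same order in all 6 pools. Axl made up 80.5 to 86.4% of the summed TAM receptor TPM, Mertk 11.5 to 17.5% and Tyro3 1.96 to 2.54%. Axl exceeded Mertk by 4.60 to 7.53 times, the lowest ratio being in F3 and the highest in M1.

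Cd36 (chr5:17986432-18094067), a class B scavenger receptor for oxidised lipids and a fatty acid transporter, stood at 153, 167 and 181 TPM in female pools and at 145, 163 and 131 TPM in male pools. The highest level was in F3 and the lowest in M3, and F1 and F2 lay among or next to the male values. Its log2FC was 0.12 (SE 0.13, 95% interval -0.17 to 0.42), with an adjusted p of 0.904 in edgeR. Cd36 is also made by adipocytes and capillary endothelium, and F3 held the highest adipocyte marker sum. The endothelial marker sum was highest in M1, at 438 TPM, where Cd36 stood at 145 TPM. The part of either cell type in the Cd36 level was not tested.

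Stab1 (chr14:30860970-30890598), the scavenger receptor stabilin-1 of macrophages and sinusoidal endothelium, stood at 87.7, 78.9 and 89.7 TPM in female pools and at 84.1, 104 and 98.8 TPM in male pools. M2 and M3 were above all female pools, and M1 was within their range. In normalised counts of summed reads, without a correction for transcript length, M2 stayed the highest pool at 329 CPM. There M3 was the lowest, at 256 CPM. The log2FC was -0.00 (SE 0.10, 95% interval -0.24 to 0.24), with an adjusted p of 1.0 in edgeR. With transcript length offsets the log2FC was -0.17, with male pools higher, and the adjusted p in edgeR was 0.835. The summed TPM of this gene gives much weight to short transcripts, most of which retain an intron.

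Megf10, on chromosome 18, an engulfment receptor known from astrocytes and muscle satellite cells, stood at 1.44, 1.43 and 1.26 TPM in female pools and at 1.59, 1.54 and 1.74 TPM in male pools. Every male pool was above every female pool, in TPM as in normalised counts. Its log2FC was -0.24 (SE 0.10, 95% interval -0.48 to 0.00), and the adjusted p in edgeR was 0.814, so the difference did not pass the test. It rested on 345 to 534 reads a pool.

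Gas6 (chr8:13515371-13544824), the ligand of all 3 TAM receptors, stood above Pros1 and Mfge8 but below Lgals3 in level. It had 265, 256 and 314 TPM in female pools and 264, 255 and 235 TPM in male pools. F3 stood highest and M3 lowest, and in TPM the remaining 4 pools lay within 255 to 265. After scaling to library size with TMM factors, the levels were 464, 442 and 547 CPM in female pools and 433, 420 and 410 CPM in male pools, and no longer overlapped. The resulting log2FC was 0.20 (SE 0.09, 95% interval -0.01 to 0.41), with an adjusted p of 0.822 in edgeR.

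Pros1 (chr16:62674275-62749710), encoding protein S, the ligand of Tyro3 and Mertk and an anticoagulant cofactor, stood at 104, 97.9 and 91.5 TPM in female pools and at 88.3, 94.0 and 84.3 TPM in male pools. M2 lay above F3, and otherwise the female pools were higher. Its log2FC was 0.08 (SE 0.07, 95% interval -0.07 to 0.24), with an adjusted p of 0.88 in edgeR. Pros1 had the smallest spread of the 10 members, its SD of log2 CPM being at percentile 20.8 of the genes tested.

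Mfge8 (chr7:78783515-78798825), which links phosphatidylserine to the alpha v integrins, stood at 54.0, 50.6 and 54.7 TPM in female pools and at 58.3, 53.1 and 46.8 TPM in male pools. The highest and the lowest value were both in male pools. Its log2FC was 0.06 (SE 0.08, 95% interval -0.12 to 0.23), with an adjusted p of 0.927 in edgeR.

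Gas6 and Pros1 together exceeded the 3 TAM receptors in TPM in every pool. These are RNA levels, and Pros1 is counted although Axl does not bind protein S. The ratio of Gas6 to Pros1 was 2.56 to 3.43, and the summed TPM of Gas6 and Pros1 was 1.69 to 2.23 times that of the 3 TAM receptors, where the highest value of both was in F3. The ratio of Mfge8 to Gas6 plus Pros1 was 0.135 to 0.166.

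Lgals3 (chr14:47605208-47623624), encoding galectin-3, a lectin that has been described as a bridging ligand of Mertk and is high in macrophages that have taken up myelin, stood at 503, 518 and 525 TPM in female pools and at 570, 471 and 883 TPM in male pools. The female values lay close together, whereas M3 was far above all other pools and M2 was the lowest. Its log2FC was -0.25 (SE 0.24, 95% interval -0.83 to 0.33), with an adjusted p of 0.896 in edgeR. Without male replicate 3 the log2FC was 0.10, the opposite direction, and also did not pass. Lgals3 had the largest spread of the 10 members, with an SD of log2 CPM at percentile 90.1. The macrophage marker sum was also highest in M3, at 1862 TPM, but its 12 genes did not move together. In M3, 4 of them (Cd68, Aif1, Fcgr1 and Cd14) had their highest value of the 6 pools and 3 (Mrc1, Cd163 and Lyve1) their lowest. Their part in the Lgals3 level was not tested.

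**Figure D2:**
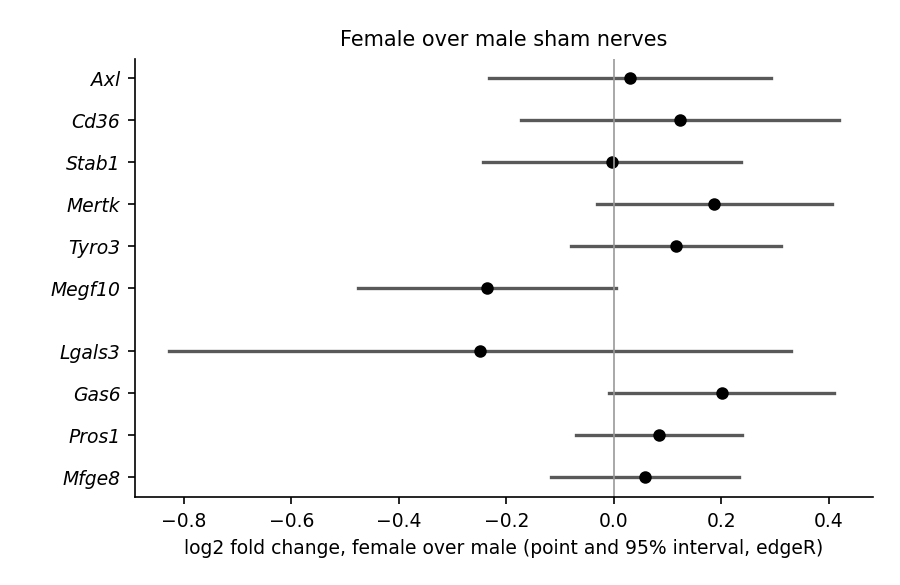
Log2FC (female over male) of each gene (point) with its 95% interval (line) from edgeR, on 3 female and 3 male pools. All 10 intervals include 0, and that of Lgals3, from -0.83 to 0.33, is the widest.

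None of the 10 genes differed between female and male pools at an adjusted p of 0.1 in edgeR's quasi-likelihood test, where 10 of the 16310 genes tested (0.0613%) passed. None of them had an unadjusted p under 0.05 in this edgeR fit, against 6.11% of all genes, and none passed in DESeq2, which called 0.975%. Log2FC was positive in 7 and negative in 3 members, against 8248 and 8062 of the 16310 genes tested. The median was 0.07 beside 0.00 over all genes. Pool values in normalised counts did not overlap for 2 of 10 members, against 11.2% of all genes. All female pools were above all male pools for Gas6, with a background of 5.16%, and all male pools above all female pools for Megf10, with a background of 6.04%. These counts are close to the background at this number of members. A missed threshold does not show equal levels, and the intervals allow changes of up to 0.83 on the log2 scale for Lgals3 and up to 0.48 for the other 9 members.

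The transcripts behind each gene differed in number and kind. The 10 genes had 59 annotated transcripts, and Gas6 had a single one. Pros1-201 held 99.6% and Megf10-201 100% of their gene's TPM. Tyro3-201 held 89.3% of the Tyro3 level, and Mertk-201 held 89.3% of the Mertk level, the rest of Mertk being Mertk-202, a processed transcript with no coding annotation. The split of reads between transcripts that share most of their sequence is an estimate, so shares are given as descriptions.

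Axl-201, which includes exon 10, held 78.9% of the Axl TPM on average, and Axl-202, without it, 8.35%. Of the pair, the form with the exon shown above made up 88.9, 90.2 and 88.9% in female pools and 90.5, 91.5 and 92.7% in male pools. The ranges of this pair did not overlap, the male pools being higher. The annotated lengths, 4265 bases for Axl-201 and 3899 for Axl-202, differ by more than the 27 bases of the exon. This share therefore compares whole transcripts, not the exon alone. As a share of all Axl TPM, Axl-201 stood at 79.5% ± 1.65 in female pools and 78.2% ± 0.818 in male pools, and these shares overlapped. Axl-202 made up 9.48% ± 0.79 of the Axl TPM in female pools and 7.22% ± 1.09 in male pools (SD, n = 3 each). Axl-203, a retained-intron transcript of 602 bases, was listed at 0 TPM in F1 and stood at 7.52 and 7.10 TPM in F2 and F3, against 9.36, 9.20 and 16.97 TPM in male pools. It took 5.40% of the TPM but 0.607% of the reads of the gene, since TPM gives a short transcript more weight than its reads.

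For Mfge8 the form without the exon prevailed, Mfge8-202 holding 76.5% and Mfge8-201 19.5% of the TPM. The form with the 111-base exon made up 21.4, 17.5 and 17.7% of the pair in female pools and 21.6, 22.0 and 21.9% in male pools. F2 and F3 stood low, and F1 lay next to the male values. Mfge8-202 made up 77.7% ± 1.35 in female pools and 75.2% ± 0.694 in male pools (SD, n = 3 each), with no overlap.

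Cd36 had 6 coding transcripts, of which 5 held more than 5% each. Cd36-206 held 36.1%, Cd36-203 28.1%, Cd36-202 13.97%, Cd36-201 13.6% and Cd36-204 7.95% of the TPM on average. No single form led by a wide margin, and none had shares that separated the sexes.

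Stab1 was the member for which the unit mattered most. Stab1-201, the full-length coding transcript of 7999 bases, held 43.3% of the TPM but 76.4% of the reads. Retained-intron transcripts held 46.2, 46.3 and 55.2% of the Stab1 TPM in female pools and 50.2, 50.3 and 66.8% in male pools. M3 had the highest share and overlapped with no female pool, whereas M1 and M2 lay within the female range. Counting coding transcripts only, the mean Stab1 level over the pools was 42.7 TPM instead of 90.5 TPM, and Stab1 was then below Mfge8, at 50.8 TPM. Stab1 also overlaps Nt5dc2 on the opposite strand, a gene with 32.8 TPM, although the libraries were stranded.

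Lgals3-204 led the Lgals3 level with 51.1% of the TPM, before Lgals3-201 with 23.2% and Lgals3-203 with 21.8%. Lgals3-203 stood at 37.2, 95.4 and 103 TPM in female pools and at 156, 101 and 323 TPM in male pools, and its share was 15.2% ± 6.76 in female pools and 28.4% ± 7.63 in male pools (SD, n = 3 each). The shares did not overlap, M2 being the lowest of the male pools with 21.4% and F3 the highest of the female pools with 19.7%. Without this transcript, the Lgals3 level was 466, 423 and 422 TPM in female pools and 414, 370 and 560 TPM in male pools. M3 stayed the highest, and the ratio of the highest to the lowest pool was then 1.51, against 1.88 with all transcripts.

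**Figure D3:**
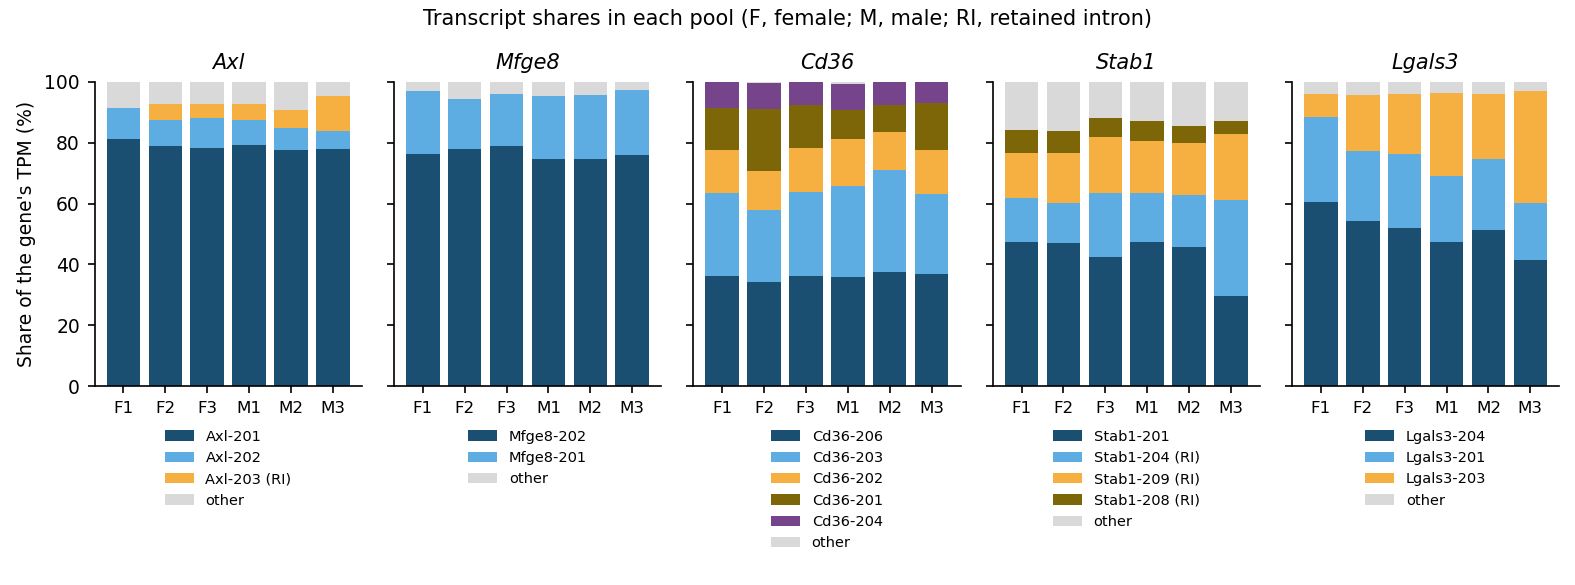
Share of each transcript in the summed TPM of its gene, in percent, for the 3 female pools (F1 to F3) and the 3 male pools (M1 to M3); transcripts under 5% on average are grouped in grey and RI marks retained-intron transcripts. The Stab1 panel shows the low share of Stab1-201 in M3, at 29.7%, and the Lgals3 panel the share of Lgals3-203, from 7.38% in F1 to 36.5% in M3.

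Over the members, 20 transcripts had a mean share of 5 to 95%. Of these, 3 had higher shares in all female pools (Axl-202, Mfge8-202 and Lgals3-204) and 2 had higher shares in all male pools (Axl-203 and Lgals3-203). Over all genes, 9.8% of 34418 such transcripts did not overlap between the sexes. Shares of transcripts of the same gene move against each other, so these 5 stand for 3 genes, and no test was made of them.

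The pool-to-pool pattern of the most variable members was compared with that of other genes. For Lgals3, among the 5798 genes with an SD at least 0.5 times its own, the nearest profiles by Euclidean distance of mean-centred log2 CPM over the 6 pools were those of Atf3 (distance 0.104), Cstb (0.167) and Gadd45b (0.179). Atf3 encodes a stress-induced transcription factor, Cstb the protease inhibitor cystatin B, and Gadd45b a stress-response protein. Atf3 stood at 29.7, 27.5 and 27.9 TPM in female pools and at 31.6, 25.5 and 46.1 TPM in male pools. M3 was the highest pool and M2 the lowest for Lgals3 and for each of the 3 nearest genes. These genes were picked for nearness to the Lgals3 profile, so a shared highest and lowest pool largely follows from that choice.

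**Figure D4:**
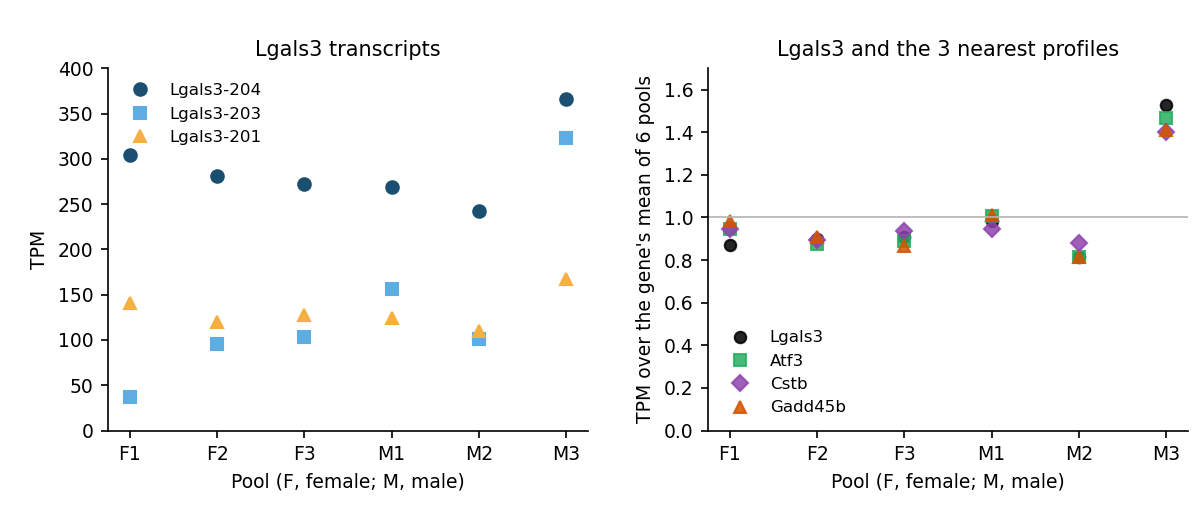
Left, TPM of the 3 leading Lgals3 transcripts in the female (F1 to F3) and male (M1 to M3) pools. Right, TPM of Lgals3 and of the 3 genes nearest in profile, each divided by its own mean over the 6 pools. M3 stands apart from the other pools in all 4, the 3 genes having been picked for a profile like that of Lgals3. Lgals3-203 reached 323 TPM in M3.

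For Cd36, with the second-largest spread (percentile 69.2), the nearest among 11159 genes were Gm37078 (distance 0.0606), B630019K06Rik (0.089) and Pamr1 (0.0996). Pamr1, the only one of these with a mean above 3 TPM, stood at 22.1, 25.1 and 31.3 TPM in female pools and at 24.8, 29.2 and 21.6 TPM in male pools. Like Cd36, it was highest in F3 and lowest in M3, which largely follows from its being picked for nearness to the Cd36 profile.

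The other genes of uptake were read from a list of 89 genes in 8 further role groups, of which 83 passed the filter and 6 did not (Stab2, Havcr1, Megf11, Mbl2, Tulp1 and Marco). None passed in edgeR, where adjusted p ran from 0.359 to 1.0, and 18 (21.7%) had an unadjusted p under 0.05, against 6.11% of all genes. DESeq2 called 5 (6.02%, against 0.975% of all genes), all lower in female pools: Cd300ld, Cd300lb, Cd300a, Pirb and Cd47. Of the 83 genes, 25 had a positive and 58 a negative log2FC, against 8248 and 8062 of the 16310 genes tested. The median was -0.07 beside 0.00 over all genes. In normalised counts, all male pools were above all female pools in 16 of the 83 (19.3%), against 6.04% of all genes. All female pools were above all male pools in 1 (1.2%), Apoh, against 5.16% of all genes. The 10 members had 1 such gene in each direction. Apoh rested on 327 reads in all. In TPM its pools overlapped, as did those of some of the 16, such as Soat1. The macrophage marker sum was higher in all male pools, and 5 of the listed genes are also on that marker list. Of the 12 markers, 9 had a negative and 3 a positive log2FC. In normalised counts, 5 were higher in all male pools, though Adgre1 among them overlapped in TPM. The part of macrophage content in these numbers of genes was not tested.

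Of the other phosphatidylserine receptors and their partners, 10 of 14 had negative values. Cd300ld, a myeloid receptor of the CD300 family, stood at 39.8, 40.8 and 38.0 TPM in female pools and at 47.8, 47.9 and 46.9 TPM in male pools, with no overlap. The log2FC was -0.30 (SE 0.05), and its adjusted p was 0.359 in edgeR and 0.00386 in DESeq2. The CD300 genes are close relatives, and reads may have been split among them. Tyrobp, the signalling adaptor of several such receptors, averaged 898 ± 33.1 TPM in female pools and 1099 ± 139 TPM in male pools, and Itgb5, an integrin partner of Mfge8, 81.9 ± 8.74 TPM and 90.6 ± 6.56 TPM (SD, n = 3 each).

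Scavenger receptors had 5 positive and 5 negative values. Cd68, a lysosomal marker of macrophages, averaged 311 ± 6.03 TPM in female pools and 412 ± 76.5 TPM in male pools, M3 being highest at 499 TPM. Cd163, the haemoglobin scavenger receptor, ran the other way with 61.4 ± 10.8 TPM in female pools and 40.3 ± 12.0 TPM in male pools (SD, n = 3 each). Adjusted p was 0.75 for Cd68 and 0.806 for Cd163 in edgeR. Lrp1, the endocytic receptor that binds many ligands including myelin debris, had a log2FC of -0.03.

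The remaining groups held no call in edgeR. Fc and complement receptors had 9 of 10 negative values with a median of -0.20, led in level by Fcer1g (log2FC -0.33) and Fcgr2b (-0.12), and the smallest p belonged to the complement receptors C3ar1 (-0.37) and Vsig4 (-0.38). Among other bridges, the complement components C1qa and C1qb averaged 244 and 353 TPM in female pools and 295 and 429 TPM in male pools. Annexin A1 (Anxa1) had a log2FC of -0.09, and Apoh, a phospholipid-binding plasma protein, one of 0.45 (adjusted p 0.797 in edgeR) at 2.91 ± 0.496 TPM in female pools and 2.15 ± 0.497 TPM in male pools (SD, n = 3 each). Of the engulfment machinery, 11 of 14 values were negative, with Dock2, a Rac activator of leukocytes, at -0.26 (adjusted p 0.552 in edgeR) and Syk, a kinase downstream of Fc receptors, at -0.25, whereas Rac1 and Cdc42 stood at -0.09 and -0.08. The 6 genes of eat-me signal exposure had a median of -0.04, with Calr, the chaperone calreticulin, at -0.09, the flippase subunit Tmem30a at -0.06 and the scramblase Xkr8 at 0.06. The 7 do-not-eat-me signals had 4 positive and 3 negative values with a median of 0.005. Of these, Pirb (-0.27), Cd47 (-0.22) and Sirpa (-0.20) were higher in all male pools (42.9%, against 6.04% of all genes). Their adjusted p was 0.488, 0.599 and 0.789 in edgeR and 0.0181, 0.0918 and 0.411 in DESeq2. Of the genes of lipid handling, Apoe averaged 1487 ± 196 TPM in female pools and 2033 ± 245 TPM in male pools (SD, n = 3 each), and Lipa, the lysosomal acid lipase, stood at a log2FC of -0.26 (edgeR, adjusted p 0.564). The lipid droplet protein Plin2 stood at 0.04 and Soat1, which esterifies cholesterol, at -0.20.

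**Figure D5:**
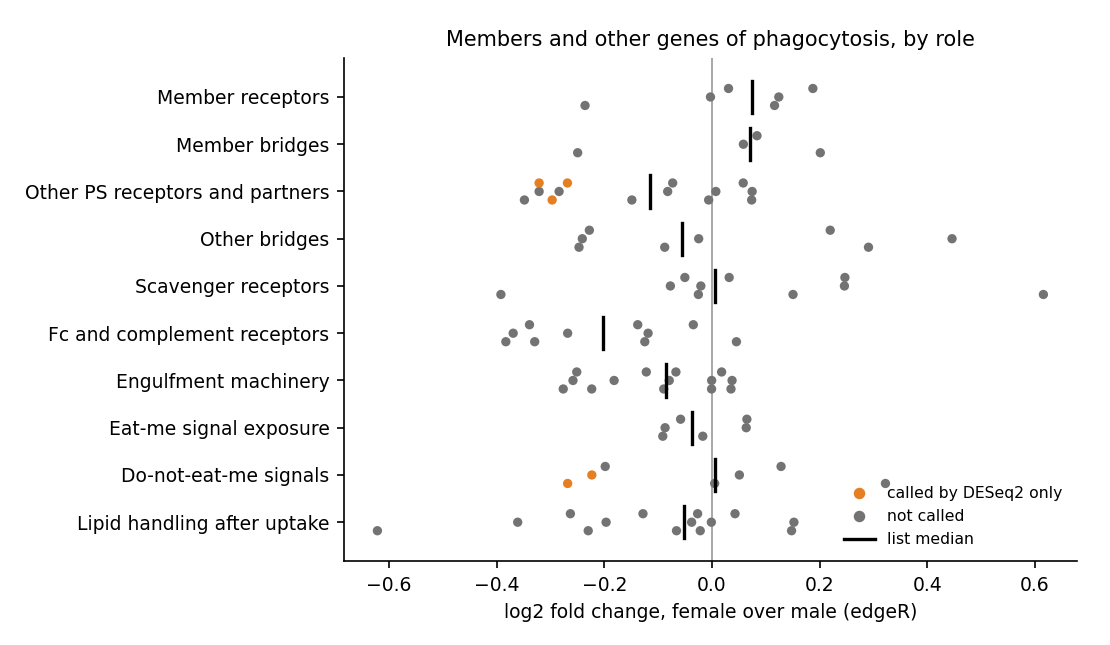
Log2FC (female over male, edgeR) of each gene that passed the filter, by role, with the list median as a black bar; PS is phosphatidylserine. The medians of the member receptors and member bridges are both 0.07, and that of the Fc and complement receptors, at -0.20, is the lowest; orange marks the 5 genes called by DESeq2 but not by edgeR.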

How the data were processed

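RNA was measured by stranded poly-A RNA-seq with paired reads in 6 pools of sham sciatic nerve. The authors trimmed reads with Trimmomatic 0.39 and quantified GENCODE mouse transcripts with Salmon (1.5.2 in the submitters' processing notes; the study's methods name another version of Salmon and of the annotation than the deposited tables). The deposited tables give, for each of 140789 transcripts, an estimated count that need not be whole, a TPM, and the annotated and effective length used by the authors' software, which are not normalized between pools.

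Here, estimated counts were summed to 54309 genes with the gene identifiers of the tables, the sums were rounded, and TPM values were added in the same way. The 16310 genes that reached 0.5 CPM in 3 pools or more entered edgeR 4.0.16 (quasi-likelihood, robust, with TMM factors and sex as the only term), and p-values were adjusted over all of them by Benjamini-Hochberg with a threshold of 0.1. The common biological coefficient of variation was 0.154. Percentiles are among these genes. The fits were tested on simulated data.

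Alternatives were DESeq2 1.42.0, RLE factors, transcript length offsets, no filter, a filter at a CPM of 2, a replicate block, limma 3.58.1 on log2(TPM + 0.5), each pool left out, coding transcripts only, and shares of reads. Coordinates and exon sequences are from GENCODE M39 on GRCm39, matched by transcript name, and transcript ends can differ from those of the authors' annotation. All 10 members were named with all pools. Of the wider list, each role group was to give its 2 genes of highest mean TPM and up to 2 of smallest p, and likeness was read for the 2 members of largest SD. Members and lists were chosen with earlier results of these data known. P-values measure the spread among pools of separate mice. The study's axotomy samples were not analysed here.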

Additional observations from a re-analysis of the deposited data

How the results depend on the processing

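No member passed in any alternative, leaving out each pool included. Unadjusted p fell under 0.05 in some alternatives for Gas6, Mertk and Megf10. In edgeR it reached 0.0334 for Gas6 without female replicate 2 and 0.0225 for Mertk with the replicate block. For Megf10 it was 0.0443 in edgeR with the filter at a CPM of 2. Over all genes, edgeR called 10, DESeq2 159, the fit without a filter 49 and the replicate block 5, and with each pool left out the count ran from 3 to 8 (3 without male replicate 1, 4 without female replicate 1 or male replicate 2). Replicate numbers gave no sign of pairing: deviations of same-numbered female and male pools correlated at -0.18, -0.13 and -0.10, against -0.07 to 0.2 for other pairs. With 3 pools a sex, these values cannot exclude shared handling of same-numbered pools. On the wider list, DESeq2 called 5 genes and every other setting 0. Of 130 alternative fold changes of members, 9 changed sign, all in 3 genes. Axl, at 0.03, was -0.0561 with length offsets and -0.0508 in limma on log2(TPM + 0.5), and -0.084 to 0.119 with each pool left out. Stab1, at -0.0028, was -0.168 with length offsets, -0.157 in that limma fit, 0.0032 with the replicate block and -0.0719 to 0.11 with each pool left out. Lgals3, at -0.25, was -0.434 to 0.10 with each pool left out. Levels moved in 4 of 70 cases, all with coding transcripts only (Axl 143, Mertk 24.2, Tyro3 3.69 and Stab1 42.7 TPM), and 12 of 23 transcript shares moved when taken over reads. With 3 pools a sex, even the narrowest interval of a member, that of Pros1, ran from -0.07 to 0.24 on the log2 scale, and Megf10 and Tyro3 rest on 2484 and 3834 reads in all.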
